A study of Mus musculus with 12 samples.

Results

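The genes described here are those of the cornified envelope and of the late differentiation of the epidermis, read across 12 libraries of mouse flank tumour tissue. They were taken by symbol from the deposited gene table: 33 genes whose symbol starts with Lce or Sprr followed by a digit, and 24 listed genes, which gave 57 of 18433 genes. RNA was sequenced from tumours that had grown after 4T1 cells, a mammary carcinoma line, were placed under the skin of the right flank in BALB/c mice. Mice bearing tumours were randomised to 4 arms of 5 animals, and 3 libraries represent each arm. The control arm has no treatment listed. The DSF arm received DSF by mouth, the anti-PD-1 arm an antibody that blocks the checkpoint receptor PD-1, given into the peritoneum, and the combination arm received both. The labels give neither a dose of DSF nor a sex or age of the mice, and they do not say that each library is a different animal. The p-values therefore measure the spread between these libraries, which may be partly technical. Below, the values of a group are always given in the order of libraries 1, 2 and 3.

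Keratinocytes that leave the basal layer of the epidermis replace their plasma membrane by the cornified envelope, a shell of proteins cross-linked by transglutaminases onto a scaffold of plakins at the desmosomes. Its building blocks include involucrin, the small proline-rich (SPRR) proteins, the late cornified envelope (LCE) proteins and the filaggrin family, and most of these genes lie side by side in the epidermal differentiation complex. Proteases then open the corneodesmosomes so that the outermost cells are shed. The program belongs to stratified epithelia, whereas 4T1 cells come from the glandular epithelium of the mammary gland.

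Total counts ranged from 13323171 to 16809705 per library. The simple epithelial keratins of the tumour cells were present throughout, with Krt8 at 401 to 698 CPM (counts scaled to library size) and Krt18 at 368 to 651 CPM, while Cldn7, another gene of simple epithelia, was at 0 to 0.937 CPM. The 8 genes of the simple epithelium list took 0.0968 to 0.133% of the counts in every library. Combination library 2 and DSF library 2 stood apart from the rest. Combination library 2 held 0.625% of its counts in 16 hair follicle genes, against 0.00101 to 0.00408% in the other 11 libraries, and 0.0235% in 6 melanocyte genes, against 0.00139 to 0.00222%. DSF library 2 held 0.723% of its counts in 7 adipocyte genes, against 0.00322 to 0.0408% in the others. In such bulk samples, fewer cells of a type and less RNA per cell cannot be told apart.

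Of the 57 genes, 45 had enough counts to be tested (0.606 CPM or more in at least 3 libraries) and 12 had not. The 12 were Lce1h, Lce1k, Lce3a, Lce3b, Lce3e, Lce3f, Sprr2a2, Sprr2b, Sprr2e, Sprr2f, Sprr2i and Sprr4, and none of them exceeded 32 counts in any library. Of those tested, 4 passed only through the combination libraries (Foxn1, Lce1j, Lce3c and Lce3d), and 2 of these are among the calls reported below. In the RefSeq order of mouse genes, 39 of the 57 lie in a single stretch of 46 protein-coding genes within the epidermal differentiation complex.

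Since most of these genes are neighbours, promoters are shown first, for 4 genes with matches to the AP-1 motif TGANTCA and for 2 Lce1 genes without. The sequences are RefSeq entries on GRCm38.p6, run 5′ to 3′ along the gene from 250 bases before to 50 bases after its start, and capitals mark AP-1 matches and the TATA motif TATAAA. They are Sprr1a (gene identifier 20753, chr3:92485832-92486131, minus strand), Ivl (16447, chr3:92573686-92573985, minus strand), Flg (14246, chr3:93273296-93273595, plus strand), Krtdap (64661, chr7:30787655-30787954, plus strand), Lce1c (73719, chr3:92678997-92679296, plus strand) and Lce1b (68720, chr3:92656877-92657176, minus strand).
Sprr1a: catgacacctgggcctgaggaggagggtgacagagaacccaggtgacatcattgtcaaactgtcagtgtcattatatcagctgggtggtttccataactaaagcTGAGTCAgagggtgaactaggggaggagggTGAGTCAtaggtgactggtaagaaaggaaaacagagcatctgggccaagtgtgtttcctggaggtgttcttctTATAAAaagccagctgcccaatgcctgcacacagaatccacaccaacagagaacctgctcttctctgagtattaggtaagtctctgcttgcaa
Ivl: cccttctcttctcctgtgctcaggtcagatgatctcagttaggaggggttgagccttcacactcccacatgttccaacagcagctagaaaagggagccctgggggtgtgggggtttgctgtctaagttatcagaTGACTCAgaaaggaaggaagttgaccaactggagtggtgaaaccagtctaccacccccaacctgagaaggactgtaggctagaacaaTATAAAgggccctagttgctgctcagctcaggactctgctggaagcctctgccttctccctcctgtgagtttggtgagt
Flg: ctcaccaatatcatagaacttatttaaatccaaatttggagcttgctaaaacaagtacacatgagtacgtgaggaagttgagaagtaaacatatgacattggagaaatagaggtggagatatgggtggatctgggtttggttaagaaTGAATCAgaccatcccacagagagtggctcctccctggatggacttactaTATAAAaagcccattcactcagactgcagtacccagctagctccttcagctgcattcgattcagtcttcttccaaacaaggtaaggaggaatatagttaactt
Krtdap: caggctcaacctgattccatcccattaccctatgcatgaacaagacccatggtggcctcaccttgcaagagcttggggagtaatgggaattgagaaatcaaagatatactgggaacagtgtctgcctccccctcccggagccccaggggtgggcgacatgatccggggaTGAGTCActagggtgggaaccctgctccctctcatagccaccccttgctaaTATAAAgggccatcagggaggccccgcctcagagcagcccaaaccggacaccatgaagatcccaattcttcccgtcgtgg
Lce1c: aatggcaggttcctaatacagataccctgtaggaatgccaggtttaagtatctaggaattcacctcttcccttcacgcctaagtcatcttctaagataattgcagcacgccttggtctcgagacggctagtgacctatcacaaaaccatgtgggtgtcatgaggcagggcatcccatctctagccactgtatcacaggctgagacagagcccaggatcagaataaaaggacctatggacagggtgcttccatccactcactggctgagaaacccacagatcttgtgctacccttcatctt
Lce1b: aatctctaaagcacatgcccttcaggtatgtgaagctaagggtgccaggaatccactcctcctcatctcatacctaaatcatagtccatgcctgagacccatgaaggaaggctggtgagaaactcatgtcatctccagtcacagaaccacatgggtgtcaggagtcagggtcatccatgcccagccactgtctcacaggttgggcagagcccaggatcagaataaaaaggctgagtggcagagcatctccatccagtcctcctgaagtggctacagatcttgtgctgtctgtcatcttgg
The Sprr1a window holds 2 AP-1 matches and 1 TATA match, and the windows of Ivl, Flg and Krtdap hold 1 of each. The Lce1c and Lce1b windows hold no match to either motif and are alike over much of their length, with 67.3% identity in a global alignment against 48.1 to 53.9% for the other pairs of these 6.

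A promoter window was listed for 50 of the 57 genes, the others being Ppl, Dsg1a, Evpl, Dsc1, Crct1, Gsdma and Lce1f. Searched on both strands, AP-1 matches were found in 16 of the 50 (32%), against 8.98% of 26994 genes with a listed window. They were unevenly spread: 8 of 12 Sprr genes (66.7%) and 16 of 30 genes outside the Lce family (53.3%) held a match, against 0 of 13 Lce1 and 0 of 6 Lce3 genes. TATA matches were in 19 of 50 (38%), against 15.7% of all genes, and 8 of 12 Sprr genes held one. The other 3 motifs searched were near or below the level of all genes: a grainyhead-like motif, AACNGGTT, in 2% against 2.34%, a KLF motif, CACACCC, in 10% against 9.05%, and an ETS motif, CCGGAAG, in 2% against 9.92%. AP-1 and TATA matches did not overlap in the windows shown. A match describes these letters in this window and is not a measured binding site.

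The genes together took the largest shares of counts in the combination tumours. Their summed share was 0.0296, 0.0333 and 0.0466% in control, 0.0285, 0.0223 and 0.0192% in DSF, 0.0903, 0.0239 and 0.0512% in anti-PD-1 and 0.0923, 0.244 and 0.198% in the combination. All 3 combination libraries lay above all others, although anti-PD-1 library 1, at 0.0903%, came close to combination library 1. All 3 DSF libraries lay below all 3 control libraries. The number of genes with no count at all was 29 of 57 in DSF library 3, 16 in DSF library 2, 11 in control library 2, 10 in anti-PD-1 library 2 and 1 to 6 in the other 8 libraries.

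**Figure D1:**
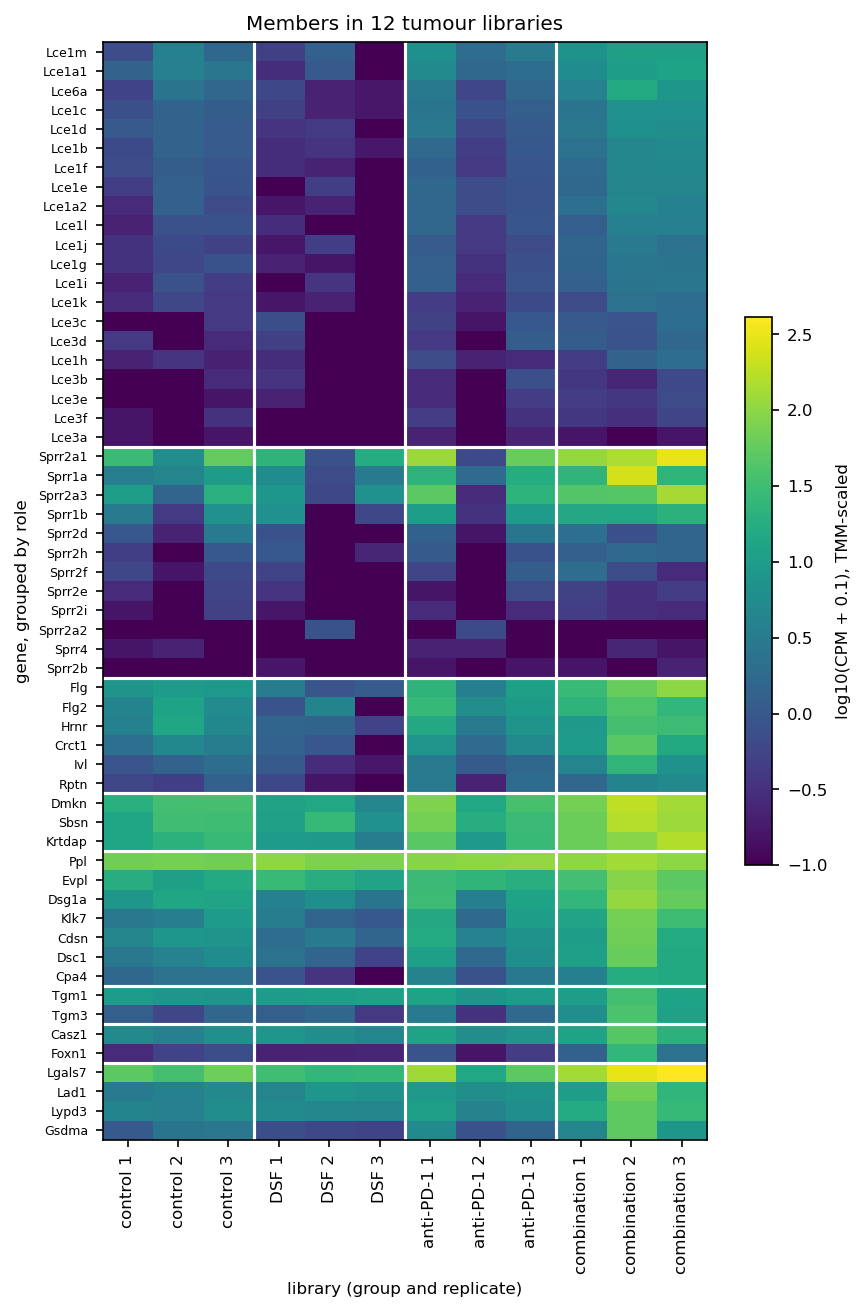
Level of the 57 genes, 1 line of cells per gene grouped by role, in the 12 libraries (columns, by group and library number), coloured by log10 of CPM plus 0.1. The combination columns are the brightest for most genes, with library 2 the highest of all 12 for 31 genes and library 3 for 19, and the DSF columns are the darkest for most Lce genes.

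Per length of transcript (FPKM), the highest levels were those of a lectin, of secreted proteins and of small proline-rich proteins. In the combination, Lgals7 stood at 722 ± 356 FPKM (SD, n = 3), Krtdap at 413 ± 183, Dmkn at 182 ± 78.7, Sprr1a at 165 ± 217, Sprr2a3 at 116 ± 79 and Sbsn at 106 ± 46.1. The spread within the group is so wide that neighbours in this order do not differ beyond it. Flg stood at 4.67 ± 2.65 and Hrnr at 2.6 ± 1.51 FPKM. In control tumours the order began likewise with Lgals7 (126 ± 40.0 FPKM), Krtdap (78.6 ± 27.4) and Dmkn (36.8 ± 10.5). Ppl, which was at 11.6 ± 0.475 FPKM in control and 18.4 ± 3.14 in the combination, differed less between groups than any gene named in this paragraph.

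Tumours given both agents were first set against those given DSF alone. In the edgeR quasi-likelihood test with Benjamini-Hochberg adjustment over 14144 genes, 28 of the 45 genes tested rose (adjusted p under 0.05) and 0 fell, where 1.6% of all genes tested rose and 0.255% fell. Of the 41 genes that passed the count filter also outside the combination, 26 were called and 37 had an unadjusted p under 0.05, with a median log2 fold change of 4.20. The other 4 are included in the counts of 45 that follow. All 45 had a log2 fold change above 0, against 46.2% of all genes, and their median was 4.18 against -0.02. The libraries of both groups did not overlap for 42 of the 45, against 12.3% of all genes tested, and at an unadjusted p under 0.05 there were 40 higher and 0 lower, against 10.5 and 8.4% of all genes. The calls sat close to the threshold, with adjusted p from 0.0387 to 0.0466, and Lad1 and Tgm3 (0.0508), Evpl and Lce1m (0.0514) lay just beyond it. They depended on single libraries in the shared fit: 0 genes were called without control 1, control 2, DSF 3, anti-PD-1 3, combination 2 or combination 3, then 2 without DSF 1 and 10 without control 3, and 29 to 34 when any single library of the remaining 4 was left out. The median stayed between 3.57 (without combination 2) and 4.64 (without DSF 1) throughout, and 0 genes were called, with 39 at an unadjusted p under 0.05, when only both groups compared were fitted. With the replicate number as a block 0 were called as well, with 42 at an unadjusted p under 0.05 and a median of 4.44. The shares of all genes at that unadjusted p in these refits are not given here, so the 39 and 42 only describe the listed genes.

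**Figure D2:**
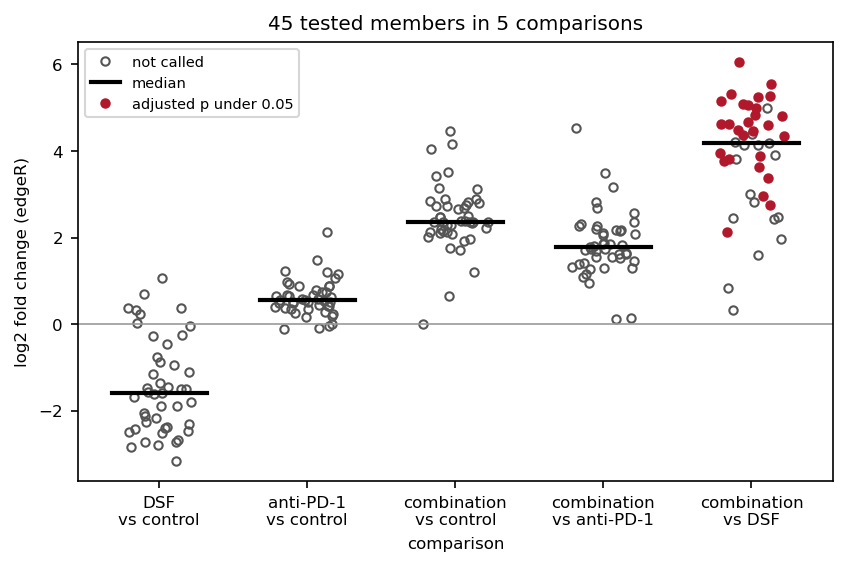
Log2 fold change from edgeR (y axis) of the 45 tested genes in 5 comparisons (x axis), 1 point per gene, with filled points for adjusted p under 0.05 and a bar at the median. In the combination against DSF all 45 points lie above 0, with a median of 4.18, and the filled points are in that comparison alone.

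The LCE family holds small cysteine-rich proteins that are cross-linked late, in the granular layer, and 11 of its 15 tested genes rose in the combination against DSF. Lce1j is among the 11, and Lce1j, Lce3c and Lce3d passed the count filter only through the combination libraries. Many single counts were low, and the genes are close paralogs among which the authors' estimates may split reads, so the sum over the 14 Lce1 genes is the firmer measure. That sum was 103, 291 and 203 counts in control, 36, 68 and 2 in DSF, 477, 128 and 231 in anti-PD-1 and 530, 933 and 1161 in the combination. The combination sums lay above all other libraries, and the DSF sums below all others.

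Among single LCE genes, Lce1c stood at 0.67, 1.3 and 1.06 CPM in control, 0.387, 0.125 and 0.0733 in DSF, 2.43, 0.726 and 1.14 in anti-PD-1 and 2.39, 6.56 and 6.73 in the combination (log2 fold change 4.67 ± 0.71 SE, adjusted p = 0.0387). Lce1b stood at 0.548, 1.3 and 1.0 CPM in control, 0.194, 0.25 and 0.0733 in DSF, 1.6, 0.363 and 0.903 in anti-PD-1 and 2.22, 4.67 and 5.24 in the combination (log2 fold change 4.47 ± 0.68 SE, adjusted p = 0.0387). For both genes each combination library lay above all control and DSF libraries, while the first combination library of Lce1c lay just below the first anti-PD-1 library. Lce1a1 stood at 1.34, 3.72 and 2.53 CPM in control, 0.194, 0.937 and 0 in DSF, 5.16, 1.51 and 1.93 in anti-PD-1 and 5.61, 10.5 and 12.6 in the combination (log2 fold change 4.60 ± 0.92 SE, adjusted p = 0.0412). Its near-identical copy Lce1a2, which had 3 counts in the DSF group as a whole, stood at 0.183, 1.18 and 0.588 CPM in control, 0.0645, 0.125 and 0 in DSF, 1.48, 0.605 and 0.782 in anti-PD-1 and 1.99, 4.59 and 3.75 in the combination (adjusted p = 0.0387). The split of reads between these copies is uncertain, and in both the combination did not overlap with any other group. Lce1d stood at 0.914, 1.3 and 1.0 CPM in control, 0.258, 0.312 and 0 in DSF, 2.73, 0.484 and 0.963 in anti-PD-1 and 2.63, 6.42 and 6.02 in the combination (log2 fold change 4.63 ± 0.84 SE, adjusted p = 0.0409). Lce1e stood at 0.365, 1.18 and 0.765 CPM in control, 0, 0.375 and 0 in DSF, 1.54, 0.605 and 0.782 in anti-PD-1 and 1.58, 4.38 and 4.29 in the combination (log2 fold change 4.63 ± 0.99 SE, adjusted p = 0.0433). Lce1f stood at 0.609, 1.05 and 0.824 CPM in control, 0.194, 0.125 and 0 in DSF, 1.25, 0.302 and 0.842 in anti-PD-1 and 1.75, 4.59 and 4.77 in the combination (log2 fold change 4.98 ± 0.79 SE, adjusted p = 0.0392). In these 3 genes as well, the combination did not overlap with control or DSF, and DSF library 3 had no count.

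Lce1m stood at 0.609, 3.84 and 1.59 CPM in control, 0.387, 1.19 and 0 in DSF, 6.34, 1.87 and 2.95 in anti-PD-1 and 6.83, 11.4 and 11.4 in the combination, and its difference from DSF missed the threshold (log2 fold change 4.18 ± 0.96 SE, adjusted p = 0.0514). Lce1j stood at 0.244, 0.557 and 0.412 CPM in control, 0.0645, 0.375 and 0 in DSF, 1.01, 0.302 and 0.602 in anti-PD-1 and 1.4, 2.92 and 2.15 in the combination (log2 fold change 3.76 ± 0.82 SE, adjusted p = 0.0466). This gene had passed the count filter only through the combination libraries. Lce1g, with 3 counts in the whole DSF group, stood at 0.244, 0.495 and 0.706 CPM in control, 0.129, 0.0624 and 0 in DSF, 1.13, 0.242 and 0.662 in anti-PD-1 and 1.34, 2.55 and 2.38 in the combination (adjusted p = 0.0409). Lce1l, also with 3 counts in DSF, all in library 1, stood at 0.122, 0.681 and 0.706 CPM in control, 0.194, 0 and 0 in DSF, 1.48, 0.302 and 0.842 in anti-PD-1 and 1.11, 3.72 and 3.69 in the combination (adjusted p = 0.0416). Lce6a, which lies outside the Lce1 group, stood at 0.426, 2.35 and 1.47 CPM in control, 0.516, 0.125 and 0.0733 in DSF, 2.85, 0.484 and 1.44 in anti-PD-1 and 3.85, 16.4 and 8.22 in the combination (log2 fold change 5.25 ± 0.97 SE, adjusted p = 0.0409). The lowest combination library of Lce1j and Lce6a lay above all libraries of the other 3 groups, whereas that of Lce1l lay below the first anti-PD-1 library. The Lce3 genes, which are known for their induction in wounded and inflamed skin, were sparse, with 7, 0 and 17 summed counts in control, 22, 0 and 0 in DSF, 26, 1 and 56 in anti-PD-1 and 51, 30.0 and 86 in the combination. Lce1i, Lce3c and Lce3d, the other tested genes of the family, were higher without passing, with adjusted p of 0.0577, 0.338 and 0.251.

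The SPRR proteins are flexible cross-bridges of the envelope, and 0 of their 6 tested genes passed the threshold in the combination against DSF. By edgeR 3 of the 6 had an unadjusted p under 0.05 and 5 did not overlap with DSF. Sprr1a stood at 3.41, 4.27 and 9.59 CPM in control, 5.61, 0.562 and 2.86 in DSF, 21.4, 1.75 and 17 in anti-PD-1 and 23.5, 240.3 and 23 in the combination (log2 fold change 4.99 ± 1.22 SE, adjusted p = 0.0595). Its level in combination library 2 was 10.4 times that in library 3, and the log2 fold change without that library was 2.95. Sprr2a1 stood at 29.1, 5.76 and 55.4 CPM in control, 22.8, 0.687 and 17.5 in DSF, 117, 0.544 and 58.7 in anti-PD-1 and 112, 147 and 318 in the combination (log2 fold change 3.82 ± 1.38 SE, adjusted p = 0.163). Sprr2a3 stood at 10.5, 1.42 and 20.1 CPM in control, 7.87, 0.5 and 6.6 in DSF, 50.2, 0.181 and 21.4 in anti-PD-1 and 43.9, 46.5 and 135 in the combination (log2 fold change 3.92 ± 1.37 SE, adjusted p = 0.15). Library 2 of control, DSF and anti-PD-1 was far below its group for both genes. Sprr2a1, Sprr2a2 and Sprr2a3 are near-identical, and Sprr2a2 had counts only in DSF library 2 (11) and anti-PD-1 library 2 (9), so their separation is uncertain. The other 3 tested genes had log2 fold changes of 2.81 for Sprr1b, 2.47 for Sprr2d and 1.97 for Sprr2h, with adjusted p of 0.319, 0.391 and 0.443.

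Of the other precursors, 4 of 6 rose against DSF. Filaggrin, encoded by Flg, bundles keratin filaments and is later broken down to moisturising amino acids, and it stood at 7.25, 9.72 and 8.35 CPM in control, 3.36, 0.812 and 1.03 in DSF, 22.4, 3.51 and 11.4 in anti-PD-1 and 27.6, 59.5 and 99.6 in the combination (log2 fold change 5.15 ± 0.77 SE, adjusted p = 0.0387). All 3 combination libraries lay above all others. Hornerin, encoded by Hrnr and built like filaggrin, stood at 3.78, 13.2 and 4.77 CPM in control, 1.42, 1.37 and 0.44 in DSF, 15.2, 2.9 and 7.28 in anti-PD-1 and 8.58, 35.4 and 30.0 in the combination (log2 fold change 4.49 ± 0.82 SE, adjusted p = 0.0409), and its first combination library lay below control library 2 and anti-PD-1 library 1. Ivl, the gene of involucrin, an early scaffold of the envelope, stood at 0.792, 1.3 and 1.94 CPM in control, 0.968, 0.187 and 0.0733 in DSF, 3.02, 0.968 and 1.5 in anti-PD-1 and 4.26, 24.3 and 6.85 in the combination (log2 fold change 4.80 ± 0.93 SE, adjusted p = 0.0409). Crct1, a cysteine-rich protein encoded in the same complex, stood at 2.01, 4.77 and 3.29 CPM in control, 1.29, 0.874 and 0 in DSF, 7.65, 1.75 and 5.05 in anti-PD-1 and 10.04, 49 and 15.8 in the combination (log2 fold change 5.07 ± 0.96 SE, adjusted p = 0.0409). For Ivl and Crct1 library 2 of the combination was more than 3 times as high as the other 2 combination libraries. Flg2, another filaggrin-type gene, stood at 4.14, 12.4 and 5.47 CPM in control, 0.774, 4.18 and 0 in DSF, 26.8, 6.11 and 9.15 in anti-PD-1 and 22.6, 42 and 24.4 in the combination and missed the threshold (log2 fold change 4.13 ± 0.99 SE, adjusted p = 0.0578), with anti-PD-1 library 1 above 2 combination libraries. Rptn, the gene of repetin, had a log2 fold change of 4.13 ± 1.17 SE, adjusted p = 0.0841.

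The 3 secreted proteins of the differentiating layers, which are encoded by neighbouring genes, all rose against DSF. Krtdap, a marker of the suprabasal layers, stood at 13.2, 21.2 and 26.9 CPM in control, 9.94, 9.05 and 3.15 in DSF, 49.9, 8.53 and 27.7 in anti-PD-1 and 63.1, 95.1 and 156 in the combination (log2 fold change 3.82 ± 0.65 SE, adjusted p = 0.0409). Dermokine, encoded by Dmkn, stood at 19.7, 34.7 and 35.2 CPM in control, 11.9, 14.7 and 4.69 in DSF, 83.3, 14 and 36.9 in anti-PD-1 and 71.9, 187 and 130.5 in the combination (log2 fold change 3.63 ± 0.65 SE, adjusted p = 0.0409). Suprabasin, encoded by Sbsn, stood at 13.1, 31.6 and 31.2 CPM in control, 11.8, 26 and 6.6 in DSF, 72.8, 17.7 and 29 in anti-PD-1 and 64.4, 162 and 121 in the combination (log2 fold change 2.96 ± 0.64 SE, adjusted p = 0.0442). Krtdap did not overlap between the combination and any other group, while the first combination library of Dmkn and Sbsn lay below the first anti-PD-1 library.

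Of the scaffold, desmosome and shedding genes, 5 of 7 rose against DSF. Dsg1a, a desmoglein of the upper epidermis whose copies Dsg1b and Dsg1c are similar in sequence, stood at 8.04, 13.9 and 12.8 CPM in control, 3.74, 6.24 and 2.35 in DSF, 30.5, 3.51 and 12.5 in anti-PD-1 and 24.8, 110.1 and 58.1 in the combination (log2 fold change 3.96 ± 0.77 SE, adjusted p = 0.0409). Dsc1, its desmocollin partner, stood at 2.68, 3.96 and 5.59 CPM in control, 2.19, 1.44 and 0.44 in DSF, 11, 1.63 and 6.14 in anti-PD-1 and 10.9, 59.1 and 15.6 in the combination (log2 fold change 4.37 ± 0.87 SE, adjusted p = 0.0409). Corneodesmosin, encoded by Cdsn, which joins the desmosome as cells cornify, stood at 4.39, 7.93 and 7.24 CPM in control, 1.87, 3.12 and 1.39 in DSF, 16.7, 3.93 and 7.04 in anti-PD-1 and 10.3, 68 and 16.8 in the combination (log2 fold change 3.88 ± 0.77 SE, adjusted p = 0.0409). In all 3 genes library 2 of the combination was the highest, and library 1 of the combination lay below library 1 of anti-PD-1. Klk7, a serine protease that cleaves corneodesmosin, stood at 2.74, 3.47 and 9.94 CPM in control, 3.36, 1.44 and 0.88 in DSF, 15.3, 1.69 and 10.2 in anti-PD-1 and 13, 72.6 and 31.5 in the combination (log2 fold change 4.35 ± 0.93 SE, adjusted p = 0.0433). Cpa4, a carboxypeptidase, stood at 1.52, 2.11 and 2.12 CPM in control, 0.774, 0.25 and 0 in DSF, 4.03, 0.726 and 2.77 in anti-PD-1 and 3.5, 17 and 15.7 in the combination (log2 fold change 5.08 ± 0.98 SE, adjusted p = 0.0409). Their first combination library also lay below the first anti-PD-1 library.

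The plakins envoplakin and periplakin, on which the envelope is first assembled, did not pass against DSF. Evpl stood at 18.1, 11.2 and 15.9 CPM in control, 27.6, 17.7 and 13 in DSF, 29.5, 23.3 and 18.7 in anti-PD-1 and 34.6, 90.4 and 51.4 in the combination (log2 fold change 1.59 ± 0.37 SE, adjusted p = 0.0514), and the combination lay above all other libraries. Ppl stood at 68.3, 72.6 and 69 CPM in control, 102, 80.0 and 80.4 in DSF, 92.5, 102 and 108 in anti-PD-1 and 101, 130.3 and 99.4 in the combination (log2 fold change 0.33 ± 0.13 SE, adjusted p = 0.185), with overlap between the combination and DSF. The transglutaminases, which make the cross-links, did not pass either. Tgm3 stood at 1.16, 0.495 and 1.47 CPM in control, 1.16, 1.56 and 0.293 in DSF, 3.14, 0.242 and 1.62 in anti-PD-1 and 5.96, 39 and 11.6 in the combination (log2 fold change 4.20 ± 0.96 SE, adjusted p = 0.0508). Tgm1, the membrane-bound enzyme, stood at 9.75, 7.68 and 7.24 CPM in control, 9.87, 10.4 and 11.6 in DSF, 12.6, 7.32 and 9.57 in anti-PD-1 and 10.5, 34.1 and 12.3 in the combination (log2 fold change 0.83 ± 0.39 SE, adjusted p = 0.277). Tgm3 was higher in every combination library than in any other, whereas Tgm1 overlapped with DSF and anti-PD-1 and was apart only in combination library 2.

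Of the 2 regulators on the list, Casz1 rose against DSF. Foxn1 was called higher too, but it had passed the count filter only through the combination libraries. Foxn1, a transcription factor of hair follicle and suprabasal keratinocytes, stood at 0.183, 0.433 and 0.647 CPM in control, 0.129, 0.125 and 0.147 in DSF, 0.771, 0.0605 and 0.361 in anti-PD-1 and 1.17, 24.9 and 2.2 in the combination (log2 fold change 6.06 ± 1.30 SE, adjusted p = 0.0436). Casz1, a zinc finger transcription factor, stood at 5.36, 3.78 and 6.41 CPM in control, 7.81, 5.99 and 4.47 in DSF, 12.4, 5.99 and 7.64 in anti-PD-1 and 12.5, 46.2 and 21 in the combination (log2 fold change 2.12 ± 0.46 SE, adjusted p = 0.0453). The excess of Foxn1 was mostly that of combination library 2, where its level was 11.3 times that of library 3.

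Of the 4 remaining genes, 3 rose against DSF. Lgals7, which encodes galectin-7, a lectin of stratified epithelia, stood at 51.1, 35 and 65.4 CPM in control, 32.4, 24.4 and 25.7 in DSF, 128, 14.3 and 50.5 in anti-PD-1 and 132, 304 and 414 in the combination (log2 fold change 3.37 ± 0.67 SE, adjusted p = 0.0409). Lypd3, a membrane-anchored protein of suprabasal cells, stood at 4.2, 3.72 and 6.12 CPM in control, 5.29, 4.5 and 4.4 in DSF, 10.8, 4.05 and 6.14 in anti-PD-1 and 16.9, 51.9 and 26.3 in the combination (log2 fold change 2.74 ± 0.44 SE, adjusted p = 0.0403). Gsdma, a pore-forming gasdermin of skin, stood at 0.975, 2.41 and 2.59 CPM in control, 0.645, 0.5 and 0.44 in DSF, 5.1, 0.726 and 1.38 in anti-PD-1 and 4.32, 52.2 and 8.22 in the combination (log2 fold change 5.33 ± 1.07 SE, adjusted p = 0.0416). Lad1, which encodes ladinin 1, stood at 2.98, 3.78 and 4.88 CPM in control, 4.32, 7.74 and 6.82 in DSF, 8.6, 5.99 and 6.92 in anti-PD-1 and 10.3, 69.2 and 24.1 in the combination and just missed the threshold (log2 fold change 2.45 ± 0.56 SE, adjusted p = 0.0508). For Lgals7, Lypd3 and Lad1 every combination library lay above all libraries of the other 3 groups, and for Gsdma the first lay below anti-PD-1 library 1.

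The combination against control and against anti-PD-1 gave the same direction without a call. Against control, edgeR called 0 of the 45 genes, 0% of all genes being called in either direction, with a smallest adjusted p of 0.256. DESeq2 called 18 of the 45, and 250 over all genes tested. At an unadjusted p under 0.05, 39 were higher and 0 lower, against 6.84 and 4.4% of all genes. Among the 41 genes that passed the count filter also outside the combination, 36 were under that p. The median log2 fold change was 2.36 (all genes, 0.02), 44 of 45 were above 0 (all genes, 52.6%) and 43 did not overlap on the higher side and 0 on the lower (all genes, 11.5 and 7.8%). The largest values were 4.45 for Foxn1, 4.16 for Tgm3 and 4.05 for Sprr1a. Against anti-PD-1, edgeR again called 0 of 45 (0% of all genes), with 32 higher and 0 lower at an unadjusted p under 0.05 (all genes, 6.27 and 3.99%). Among the 41 genes that passed the count filter also outside the combination, 30 were under that p. DESeq2 called 6 of the 45, and 65 over all genes tested. The count at an unadjusted p under 0.05 was 13 without combination 2, 18 without anti-PD-1 2 and 21 without anti-PD-1 3. For these refits no share of all genes is given here, so the counts only describe the listed genes. With all libraries the median was 1.78, all 45 were above 0 (all genes, 51.6%), and 23 did not overlap on the higher side and 0 on the lower (all genes, 10.7 and 10.1%).

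DSF alone stood on the other side of control. By edgeR 0 of 45 genes were called against control (0% of all genes), with 17 lower and 1 higher at an unadjusted p under 0.05, against 5.15 and 5.47% of all genes. DESeq2 called 3 of the 45, and 223 over all genes tested. Counted in both directions, the 18 at an unadjusted p under 0.05 became 10 without DSF 3 and 11 without either control 2 or control 3. For these refits no share of all genes is given here, so the counts only describe the listed genes. The median log2 fold change was -1.60, 7 of 45 were above 0 (all genes, 55.6%), and 19 did not overlap on the lower side and 2 on the higher, against 6.41 and 5.07% of all genes. In the LCE family 10 of 15 were lower at that unadjusted p, for example Lce1f (log2 fold change -2.84 ± 0.80 SE, adjusted p = 0.272) and Lce1b (log2 fold change -2.39 ± 0.68 SE, adjusted p = 0.273). Hrnr had a log2 fold change of -2.72 ± 0.78 SE, adjusted p = 0.276, and Flg of -2.27 ± 0.72 SE, adjusted p = 0.329. The 7 log2 fold changes above 0, all without a call, were those of Lce3c (1.07), Lad1 (0.70), Evpl (0.37), Tgm1 (0.37), Ppl (0.32), Casz1 (0.23) and Lypd3 (0.01). The other tested Lce genes had values below 0. Lce3c had 0, 0 and 5 counts in control and 10, 0 and 0 in DSF, so its value rests on few counts in DSF library 1. This comparison shares its DSF libraries with that of the combination with DSF, so low DSF values enter both.

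Anti-PD-1 alone against control called 0 of 45 by edgeR (0% of all genes), with 1 higher and 0 lower at an unadjusted p under 0.05 (all genes, 0.94 and 0.792%), and 0 by DESeq2 (0 over all genes tested). That gene was Ppl (log2 fold change 0.53 ± 0.13 SE, adjusted p = 0.999). The median was 0.56 and 42 of 45 were above 0 (all genes, 50.5%), but 3 did not overlap with control on the higher side and 0 on the lower, against 2.86 and 2.82% of all genes. Without anti-PD-1 library 1 the median was -0.08, with 22 of 48 tested genes above 0, and without anti-PD-1 library 2 it was 0.93. Within anti-PD-1, library 1 was the highest for 41 of 45 genes and library 2 the lowest for 43, so the group mean stands for libraries that differed widely. The interaction, which asks whether the change with DSF differed in the presence of anti-PD-1, called 0 of 45 by edgeR (0% of all genes), with 32 higher and 0 lower at an unadjusted p under 0.05 (all genes, 7.05 and 5.35%) and 20 calls by DESeq2 (235 over all genes tested). Its median was 3.52, and 44 of 45 were above 0 (all genes, 47.5%). The test of any difference among the 4 groups called 0 of 45 (0% of all genes, smallest adjusted p 0.0813), with 39 at an unadjusted p under 0.05 (all genes, 13.2%) and 34 by DESeq2 (870 over all genes tested). Without combination 1 edgeR called 6 in that test, and 41 over all genes tested.

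**Figure D3:**
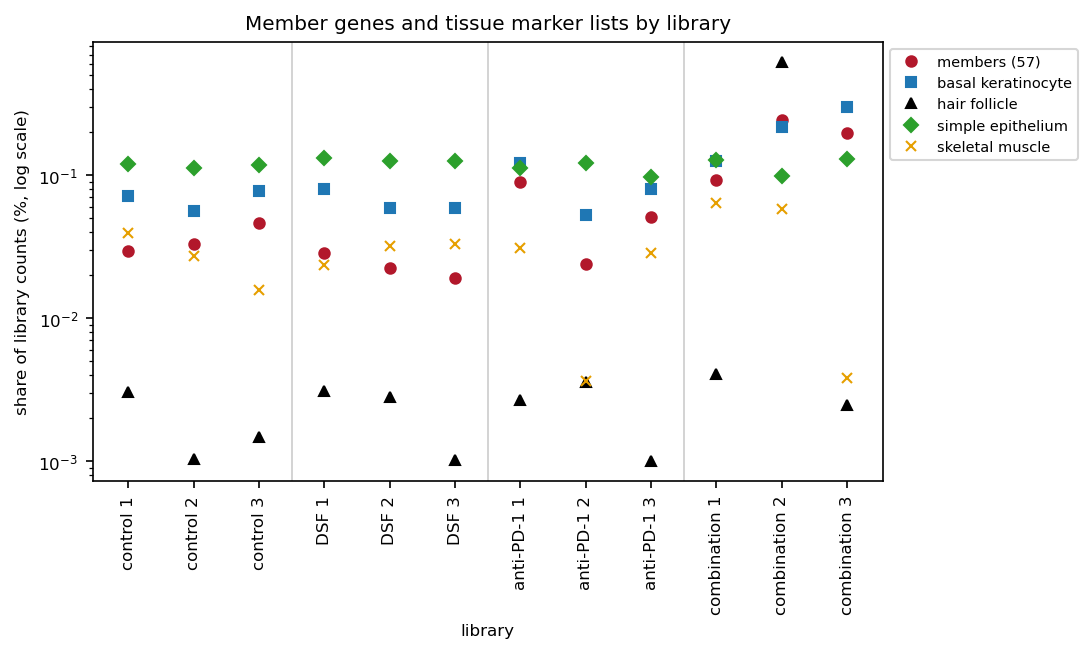
Share of each library's counts (percent, log axis) taken by the 57 genes and by 4 marker lists, 1 point per library and list, in order of group. The hair follicle list is high in combination library 2 alone. The basal keratinocyte list is highest in the 3 combination libraries, with combination library 1 (0.126%) close to anti-PD-1 library 1 (0.121%). The summed share of the simple epithelium list, set mostly by Krt8 and Krt18, is level.

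Some markers of other skin cells were also highest in the combination, and their part in the results was not tested. The 7 basal keratinocyte genes, among them Krt5 and Krt14, took 0.0564 to 0.0773% of the counts in control, 0.0588 to 0.0801% in DSF, 0.0526 to 0.121% in anti-PD-1 and 0.126, 0.218 and 0.300% in the combination. The 0.121% was that of anti-PD-1 library 1, close to combination library 1. Outside the combination Itga6, at 198 to 365 CPM, and Itgb4, at 132 to 269 CPM, made up a large part of these sums. Their means were 315 and 222 CPM in the combination and 318 and 219 CPM in DSF. Of the 7 genes, 2 rose in the combination against DSF, Trp63 (log2 fold change 3.37 ± 0.72 SE, adjusted p = 0.0433) and Col17a1 (log2 fold change 3.10 ± 0.68 SE, adjusted p = 0.0472). Krt14 was at 96.5, 59.6 and 182 CPM in control and 105, 40.0 and 39.2 CPM in DSF. It was at 295, 12.2 and 141 CPM in anti-PD-1 and 306, 613 and 1161 CPM in the combination, so combination library 1 was close to anti-PD-1 library 1. The hair follicle keratins Krt25 and Krt71 were at 1124 and 1374 CPM in combination library 2, and at 0 to 0.759 CPM in every other library. In combination library 1 Krt25 and Krt71 were both at 0.759 and Krt27 at 0.526 CPM, and 3 of the 16 hair follicle genes had no count there, against 7 in combination library 3 and 7 to 12 in the libraries of the other groups. The hair follicle shares of combination libraries 1 and 3 were 0.00408 and 0.00248%, and those of the other groups 0.00101 to 0.0036%, but outside combination library 2 these sums were mostly Padi3, at 8.36 to 34.7 CPM. Sebocyte genes summed to 0.0178 to 0.025% in every library, mostly through Soat1, at 143 to 186 CPM. Of 5 sebocyte genes tested in the combination against DSF by edgeR, 0 were called and 4 were higher at an unadjusted p under 0.05, with a median log2 fold change of 1.94. Among them, Far2 stood at 31.3 ± 16 against 5.69 ± 2.54 CPM (mean ± SD of 3 libraries each, adjusted p = 0.0579) and Elovl3 at 11.8 ± 6.22 against 1.05 ± 0.661 CPM (adjusted p = 0.0792). The simple epithelium genes did not share a direction: of 7 tested by edgeR 0 were called, with 3 higher and 2 lower at an unadjusted p under 0.05. Cdh1, the gene of E-cadherin, stood at 72 ± 24.8 against 19.3 ± 6.92 CPM (adjusted p = 0.0836), Epcam at 23.5 ± 16.9 against 4.26 ± 4.01 CPM (adjusted p = 0.132) and Krt19 at 1.97 ± 0.878 against 12.1 ± 9.79 CPM (adjusted p = 0.0646). Skeletal muscle genes were at 0.0636% in combination library 1, 0.0579% in library 2 and 0.00384% in library 3. They were at 0.0157 to 0.0392% in control, 0.0236 to 0.0331% in DSF and 0.00363 to 0.0313% in anti-PD-1, where library 2 was the lowest.

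**Figure D4:**
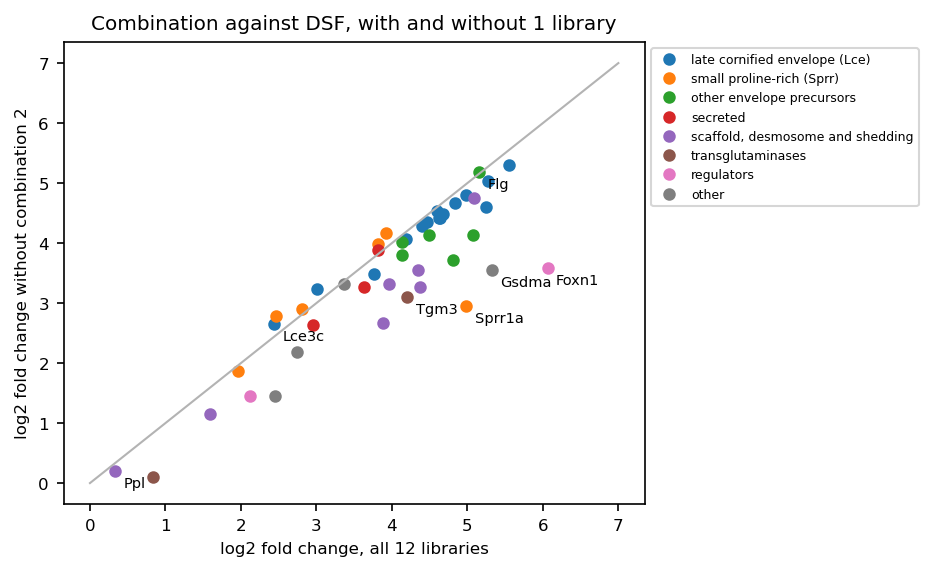
Log2 fold change of each tested gene in the combination against DSF, with all 12 libraries (x axis) and without combination library 2 (y axis), coloured by role, with the line of equal values. Foxn1, Gsdma and Sprr1a lie well below the line, and Flg lies on it.

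Combination library 2, with its hair follicle transcripts, was the highest of all 12 libraries for 31 of the 57 genes, combination library 3 for 19 and combination library 1 for 1 (Sprr2f). In the remaining 6 genes, all with few counts or overlapping groups, another library was the highest. Library 2 exceeded library 3 more than 2-fold for 12 of the 45 tested genes. Without library 2 the log2 fold change against DSF went from 6.06 to 3.59 for Foxn1, from 5.33 to 3.55 for Gsdma, from 4.20 to 3.11 for Tgm3, from 3.88 to 2.66 for Cdsn and from 2.45 to 1.45 for Lad1. It hardly moved for Flg (5.15 to 5.19), Krtdap (3.82 to 3.89) and Lce1c (4.67 to 4.48). Without that library 0 of 46 genes tested were called, with 38 at an unadjusted p under 0.05 and a median of 3.57. Over all genes tested 0 were called as well, and the share of all genes at that unadjusted p is not given here. Both other combination libraries lay above all DSF libraries for 51 of the 57 genes and above all control libraries for 49. The 57 include genes of few counts, such as Lce3a, with 1 count in each of these 2 combination libraries and 0 in DSF. Combination library 1, the lowest of its group for 39 of the 45 tested genes, lay above all control libraries for 43 and above anti-PD-1 library 1 for 27. The shares of all genes that meet these conditions were not computed, so these counts only describe the listed genes.

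**Figure D5:**
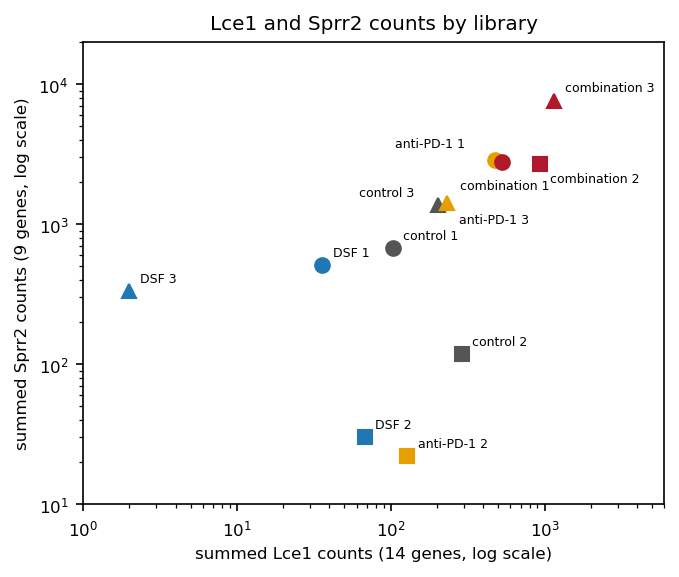
Summed counts of the 9 Sprr2 genes against those of the 14 Lce1 genes in the 12 libraries (both log axes), each point named by its group and library number. Library 2 of control, DSF and anti-PD-1 lies low on the Sprr2 axis for its Lce1 sum.

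The families did not keep a fixed ratio to each other. The Sprr2 genes summed to 681, 119 and 1375 counts in control, 513, 30 and 331 in DSF, 2865, 22 and 1417 in anti-PD-1 and 2775, 2697 and 7662 in the combination. Per Lce1 count this was 6.61, 0.409 and 6.77 in control, 6.01, 0.172 and 6.13 in anti-PD-1 and 5.24, 2.89 and 6.60 in the combination, and 14.2 and 0.441 in DSF libraries 1 and 2. DSF library 3 had 331 Sprr2 and 2 Lce1 counts. The library numbered 2 had the lowest value in each of the 4 groups, and the labels do not say what the numbers mark. The Sprr family as a whole made up 1.06 to 3.61% of the counts of the 57 genes in library 2 of control, DSF and anti-PD-1, against 14.1 to 25.3% in the other 9 libraries. The share of Lce3 in the summed Lce1 and Lce3 counts was 6.36, 0 and 7.73% in control, 37.9, 0 and 0% in DSF, 5.17, 0.775 and 19.5% in anti-PD-1 and 8.78, 3.12 and 6.90% in the combination. The high value in DSF was that of library 1 alone (exact Clopper-Pearson 95% interval 25.5 to 51.6%), while DSF libraries 2 and 3 had 0 of 68 and 0 of 2 counts. The exact interval was 15.1 to 24.6% in anti-PD-1 library 3 and 5.55 to 8.45% in combination library 3. In control library 2, with 0 of 291 counts, its upper end was 1.26%, and a limit of 3 counts of the total gives 1.03%. These intervals and limits cover counting error only.

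Among other genes of epidermal differentiation, from lists covering the neighbouring steps, some rose in the combination against DSF by edgeR and 0 fell. These calls depended on single libraries as well. With combination library 2 or combination library 3 left out, 0 of all genes tested were called. Of 9 desmosome genes tested, 5 rose: Dsg1b, Dsc3, Pkp1, Dsp and Perp, with the desmoplakin gene Dsp at 226 ± 179 against 16.5 ± 5.11 CPM (mean ± SD of 3 libraries each, log2 fold change 3.77 ± 0.79 SE, adjusted p = 0.0433). Of 12 proteases and inhibitors, 5 rose: Klk5, Spink5, Cst6, Casp14 and Asprv1. Casp14, the protease that helps to break down filaggrin, stood at 12.2 ± 4.85 against 0.517 ± 0.379 CPM (mean ± SD of 3 libraries each, log2 fold change 4.53 ± 0.85 SE, adjusted p = 0.0409). Of 11 transcription factors, 4 rose: Grhl3, Ovol1, Zfp750 and Trp63. All 4 were highest in combination library 2, for example Ovol1 at 4.67, 29.1 and 8.46 CPM in the combination. Casp14 and Spink5 were instead highest in combination library 3. Zfp750, a factor of terminal differentiation, stood at 25 ± 25.7 against 1.18 ± 0.144 CPM (mean ± SD of 3 libraries each, log2 fold change 4.40 ± 0.91 SE, adjusted p = 0.0416). Of 9 genes of barrier lipids, 1 rose, Abca12, which loads lipids into lamellar granules (log2 fold change 3.73 ± 0.82 SE, adjusted p = 0.0471). Of 14 other differentiation genes, 6 rose: Kprp, Cnfn, Nccrp1, Calml3, Sfn and Krt1, the last a keratin of the suprabasal layers at 162 ± 71.8 against 8.8 ± 5.94 CPM (mean ± SD of 3 libraries each, log2 fold change 4.19 ± 0.78 SE, adjusted p = 0.0409). The medians of these lists, in the order given, were 3.77, 3.42, 2.91, 3.37 and 3.78, against -0.02 for all genes. Log2 fold changes below 0, without a call, were found for example for Prss8 (-0.30), Tfap2a (-0.04) and Ecm1 (-0.38). Ecm1 stood at 386 ± 10.4 CPM in DSF and 296 ± 69.9 in the combination, and its libraries did not overlap between both groups. Loricrin, a major envelope protein encoded by Lor, which is not among the 57 genes, missed the threshold at 29.2 ± 11.7 against 1.95 ± 2.48 CPM (mean ± SD of 3 libraries each, log2 fold change 3.88 ± 0.95 SE, adjusted p = 0.0592). Between the first and the last of the 39 neighbouring genes described above, 2 tested genes lay outside the 57, Kprp and 2310050C09Rik, and both rose (log2 fold changes 4.37 and 4.17).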

How the data were processed

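Per the labels' protocols, total RNA of tumour tissue was isolated with TRIZOL and read on a BGISEQ-500 instrument. Tools named in the submitters' processing notes are RSEM 1.2.12, DESeq2 1.4.5, HISAT2 2.0.4 and Bowtie2 2.2.5, with no role given, and the genome build is not given in the sources used here. The deposited gene table holds expected counts (9.02% not whole, estimated by the authors) and the authors' FPKM values, and 24 further value columns were not used. Libraries were matched to columns by name, with p read as anti-PD-1 from the group plan and the control column ending in 11 read as control 1.

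Expected counts were rounded, and 14144 of 18433 genes passed filterByExpr (minimum count 10). They were scaled by TMM and fitted with edgeR 4.0.16 quasi-likelihood in R 4.3.3, 1 mean per group over all 12 libraries, with two-sided tests adjusted by the Benjamini-Hochberg method over all genes. Every gene with an adjusted p under 0.05 in a contrast, and the 3 with the highest mean CPM in each role, are given with their values in each library. CPM uses TMM-scaled library sizes. Alternatives were RLE scaling, no filter, DESeq2 1.42.0, only the groups compared, a replicate block and leaving out each library. The edgeR steps were tested on simulated data for the combination against DSF, with changes placed only in genes of higher counts. Genes of few counts, such as many Lce genes, were not covered. The genes, lists, motifs and comparisons were chosen with earlier results of these data known. Promoter sequences and gene order are from RefSeq, GRCm38.p6, matched by gene identifier.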

Additional observations from a re-analysis of the deposited data

How the results depend on the processing

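In the combination against DSF, where 28 genes were called, RLE scaling gave 28, no filter 26 and DESeq2 35, while fitting only both groups or adding a replicate block gave 0. Leaving out single libraries gave 0 to 34. In the comparisons where 0 genes were called, DESeq2 called 3 for DSF against control, 18 for the combination against control, 6 against anti-PD-1, 20 for the interaction, 34 for any difference and 0 for anti-PD-1 against control. Any difference gave 0 to 6 without single libraries, and the other 5 contrasts with no call gave 0 throughout. No named gene changed direction in the combination against DSF or control under these alternatives. Over all genes, the 263 called in the combination against DSF became 0 with only both groups, 7 with a replicate block, 1170 with DESeq2 and 0 to 601 without single libraries. DESeq2 called 223 genes for DSF against control, 250 for the combination against control, 65 against anti-PD-1, 235 for the interaction and 870 for any difference. In the same order of comparisons, edgeR called 0 to 35, 0, 0 to 3, 0 to 19 and 0 to 41 genes without single libraries. It called 4 for the combination against anti-PD-1 with only both groups. The cause of these shifts was not tested. The labels do not say what the replicate numbers mark. Same-number correlations of deviations ran from -0.38 to 0.45, with 10 of 18 over 0.1, and 7 of 12 libraries correlated best with their own number, which is a hint from the data and not from the design. For control and the combination all 3 exceeded 0.1 (0.26, 0.20 and 0.12), and there the block left 0 genes called; for DSF and the combination they were 0.19, 0.37 and 0.07. Without the block 0 genes were called for control and the combination as well. Why calls were lost under the block in the combination against DSF was not tested. Several Lce genes have few counts, Sprr2a1 and Sprr2a3 vary widely within groups, and groups of 3 libraries limit all tests.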

Other observations

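Crnn, a gene of the epidermal differentiation complex that encodes cornulin and is no member of the gene set described above, was at 86.0 CPM in combination library 2, at 0.0584 CPM in combination library 1 and at 0 in the other 10 libraries. Krt34, a keratin of the hair shaft, followed the same pattern, at 149 CPM in that library and at most 0.0596 CPM elsewhere.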
